A study of Homo sapiens with 4 samples.

Results

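ACTA2, TAGLN, CNN1, CNN2, MYL9, TPM1, TPM2, TPM4, MYH9 and CALD1 encode proteins of actin stress fibres and of the contractile apparatus of smooth muscle. They were taken by gene symbol from the deposited mRNA table, with no threshold on their values but with earlier results of these data known, and are 10 of its 19610 symbols and 80 of its 79798 transcripts. All 10 reached 1 FPKM (fragments per kilobase of transcript, scaled to the fragment total of the library) in at least 1 library, as did 12859 symbols in all. The RNA came from hFOB 1.19, an established human osteoblast line immortalised with a temperature-sensitive SV40 large T antigen. Day 0 was the control, grown at the lower, permissive temperature, and days 3, 6 and 9 were cells undergoing mineralization after the shift to the higher temperature in the same serum-containing medium. Each day has 1 library, so no difference below has a replicate check and no test was made. The time course and the change of temperature cannot be told apart in any comparison with day 0.

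Stress fibres are bundles of actin filaments and non-muscle myosin II that pull on the sites where a cell is attached to its matrix. Tropomyosins lie along the filaments, caldesmon and calponins bind actin and restrain the myosin, and phosphorylation of the myosin regulatory light chain by its kinase starts contraction. Many genes of this apparatus are targets of serum response factor (SRF). Its coactivators MRTFA and MRTFB, of the myocardin family, leave the cytoplasm when free actin monomer becomes scarce. Alpha smooth muscle actin is the usual marker of a myofibroblast.

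The FPKM of the mRNA table sum to 617857, 538072, 545948 and 569922 in the libraries of days 0, 3, 6 and 9. They carry no read counts. In symbols with 1 transcript and values under 0.05 FPKM, the most frequent ratio to day 0, which compares what 1 fragment is worth in each library, was 1.27 on day 3, 1.19 on day 6 and 1.03 on day 9, held within 2% by 56 of 110, 44 of 113 and 45 of 123 transcripts. By this measure 1 fragment was worth more on days 3 and 6 than on day 0, and about the same on day 9. The numbers of clean reads that the study reports differ less between the days than these ratios. Ratios are given as the log2 ratio of FPKM + 1, which understates changes of low genes, and a gene is called 2-fold higher or lower where this ratio is at least 1 or at most -1. As the libraries are of bulk RNA, fewer cells of a kind and less RNA per cell cannot be told apart.

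The 10 genes did not move as one group. ACTA2 was 2-fold higher than day 0 on days 3, 6 and 9, TAGLN and MYL9 were 2-fold lower on all 3 days, and the other 7 stayed within the limit. Of all 12859 genes, 8.13% were called higher and 5.30% lower at day 3. At day 6 these shares were 9.01% and 6.42%, at day 9 they were 9.60% and 6.52%, and 5.93% passed the limit upward and 3.45% downward at each of the 3 days. With FPKM rescaled to the same sum in each library, the shares at day 3 were 10.9% higher and 3.10% lower. The members' shares, 1 and 2 of 10, are counts of so few genes that they are read here gene by gene. The median log2 ratio of the 10 genes was -0.41 on day 3, -0.49 on day 6 and -0.41 on day 9, against -0.08, -0.08 and -0.09 over all genes. Among the 843 genes with a mean of at least 100 FPKM, the level at which most members lie, it was -0.20, -0.17 and -0.09. The members' median at day 3 moved to -0.21 with FPKM rescaled to the same sum and to -0.64 on the largest transcript of each gene. The ratios of the members ran from -2.73 to 2.99 on day 3, and 7 of the 10 were below 0, as were 55.1% of all genes and 63.2% of those with a mean of at least 100 FPKM. On day 0 the order of the levels began with TAGLN, TPM1 and TPM4 and ended with CNN1 and ACTA2. By day 3 it began with TPM1, TPM4 and MYH9 and ended with TAGLN, MYL9 and CNN1.

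**Figure D1:**
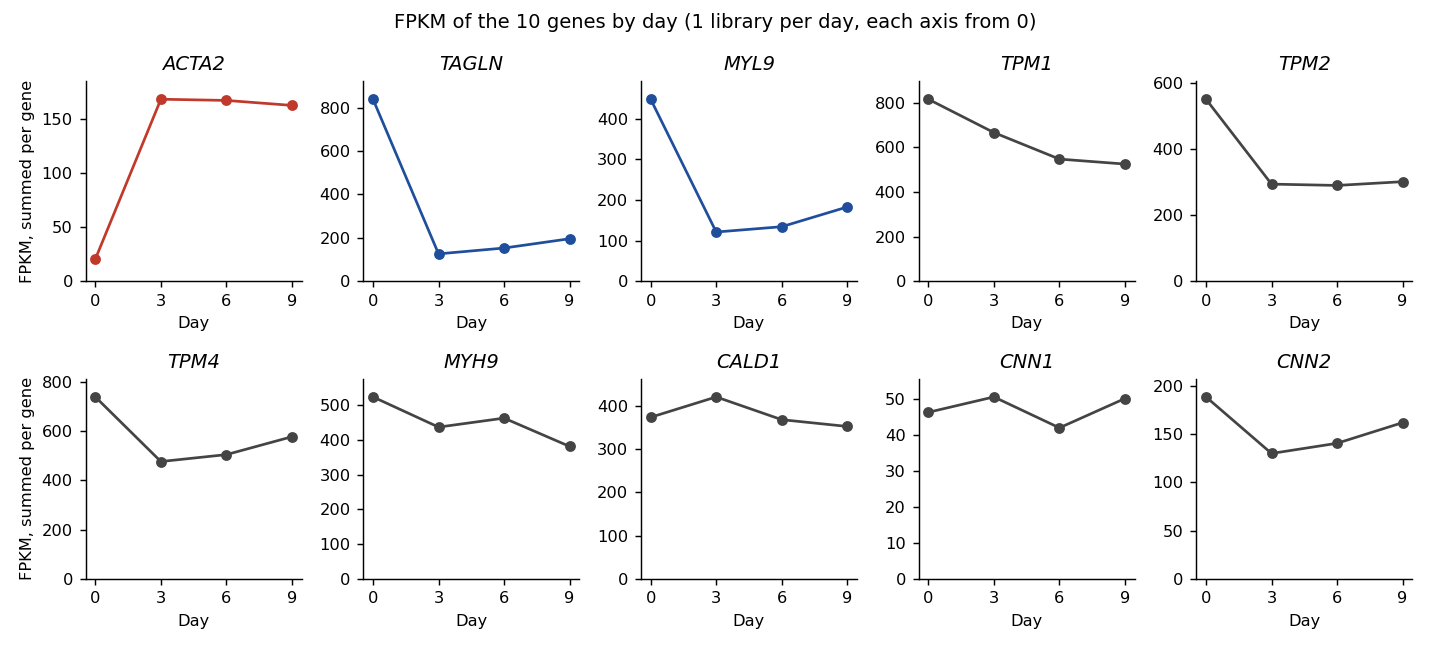
FPKM summed per gene (vertical axes, each from 0) against the day (horizontal axes) for each of the 10 genes, with 1 library per point. ACTA2 goes from 20.4 to 168 FPKM by day 3 and stays there, TAGLN goes from 839 to 126, MYL9 from 449 to 121, and the other 7 genes move less.

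ACTA2 (ENSG00000107796) encodes alpha smooth muscle actin, the actin of vascular smooth muscle and of myofibroblasts. It had 20.4 FPKM at day 0, then 168, 167 and 163 at days 3, 6 and 9. The day 0 library was low and the 3 later ones lay close together, the highest being 1.04 times the lowest. The level was 8.26-fold that of day 0 on day 3, 8.21-fold on day 6 and 7.98-fold on day 9. The log2 ratios were 2.99, 2.98 and 2.94, and only 44, 69 and 98 of the 12859 genes had a larger one. On day 0 ACTA2 ranked 5008th by FPKM among these genes, and on day 3 it ranked 421st.

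Of the 4 ACTA2 transcripts in the table, ENST00000224784 carried most of the FPKM, with 18.9 at day 0, then 124, 123 and 120.3 at days 3, 6 and 9. A second transcript, ENST00000415557, had 1.44, 37.2, 34.1 and 35.1 FPKM. Its share of the gene went from 7.07% on day 0 to 22.1% on day 3, and was 20.4% and 21.6% on days 6 and 9. ENST00000458159 had 0.0595 FPKM on day 0 and 6.88, 7.17 and 5.60 later, and ENST00000458208, at 0 in the first 2 libraries, had 2.69 (day 6) and 1.58 FPKM (day 9). All 4 transcripts were thus higher on days 6 and 9 than on day 0, but fragments shared by transcripts are divided by an estimate, so the shares are less firm than the sum.

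The antisense RNA ACTA2-AS1, looked up in the lncRNA table after the ACTA2 values had been seen, had 0.448 FPKM on day 0 and 2.62, 2.57 and 1.69 FPKM on days 3, 6 and 9 over 2 transcripts. Its level was 5.85-fold, 5.74-fold and 3.77-fold that of day 0, which was under 1 FPKM. The log2 ratios of FPKM + 1 were 1.32, 1.30 and 0.89, so day 9 did not pass the 2-fold limit. ACTA2 stayed 45.5 to 96.2 times higher than its antisense partner. The kit marks strand, but whether the counting used it is not given in the sources used here, and without strand the reads of the pair cannot be told apart.

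The promoters of 3 members are shown because they hold the CArG box, the site that SRF binds, or a near match to it. RefSeq windows (GRCh38.p14) of the 250 bases before a start were found for 8 of the 10 genes, 15 windows in all, some of them overlapping, and none was matched for TAGLN and MYL9. A full CArG box, which reads the same on both strands in its general form, was found in 2 of the 15 windows and in 1.16% of all 35116. With 1 base of the A/T core allowed to be another, 4 of the 15 windows and 7.04% of all held one. Of the 2 windows of ACTA2, 1 holds 2 boxes with 1 such base each, beginning 121 and 71 bases before the start. CNN2 holds a full box 89 bases before its start and TPM4 one 173 bases before the first of its 3 starts. The 4th gene is CALD1, with a near match 26 bases before 1 of its 4 starts. The 200 bases before each start are printed 5′ to 3′ on the gene's strand, with the boxes in capitals.
ACTA2, chr10:88952774-88952973, minus strand: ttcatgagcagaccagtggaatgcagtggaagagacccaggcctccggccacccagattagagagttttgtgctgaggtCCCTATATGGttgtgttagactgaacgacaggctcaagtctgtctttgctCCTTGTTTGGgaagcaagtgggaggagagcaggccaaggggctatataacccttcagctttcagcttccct
CNN2, chr19:1026408-1026607, plus strand: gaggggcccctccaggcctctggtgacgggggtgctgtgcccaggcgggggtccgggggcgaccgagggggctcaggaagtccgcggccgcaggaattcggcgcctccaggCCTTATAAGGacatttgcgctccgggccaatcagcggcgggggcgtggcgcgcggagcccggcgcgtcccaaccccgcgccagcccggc
TPM4, chr19:16067338-16067537, plus strand: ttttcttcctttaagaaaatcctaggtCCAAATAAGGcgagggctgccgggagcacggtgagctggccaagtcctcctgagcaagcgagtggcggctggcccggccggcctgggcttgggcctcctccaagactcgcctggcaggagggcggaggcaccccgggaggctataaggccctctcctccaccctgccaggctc
The 3 genes with these windows did not move together: ACTA2 had a log2 ratio of 2.99 on day 3, CNN2 of -0.53 and TPM4 of -0.63. These ratios are of the sum over all transcripts of a gene, so they do not show the output of the start next to a box. A match is a run of letters in these windows, and binding was not measured.

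TAGLN (ENSG00000149591) encodes transgelin, also known as SM22 alpha, a small actin-binding protein and an early marker of smooth muscle. It had 839 FPKM at day 0, then 126, 153 and 195 at days 3, 6 and 9. Day 0 was the highest library and day 3 the lowest, and days 6 and 9 lay between them. The level on day 0 was 6.68-fold that of day 3, 5.50-fold that of day 6 and 4.29-fold that of day 9. The log2 ratios were -2.73, -2.45 and -2.10, and 44, 74 and 118 of all genes had a smaller one. TAGLN went from rank 112 by FPKM on day 0 to rank 611 on day 3.

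Both main TAGLN transcripts took part. ENST00000392951 had 663, 103, 118 and 163.8 FPKM from day 0 to day 9, and ENST00000529622 had 164, 18.7, 30.8 and 27.5. The first kept 77.7% to 83.8% of the gene in every library. ACTA2 and TAGLN, which are commonly read together as markers of the contractile state, therefore stood in a very different ratio before and after the shift. TAGLN had 41.2 times the FPKM of ACTA2 on day 0, 0.747 times on day 3, 0.912 times on day 6 and 1.20 times on day 9.

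MYL9 (ENSG00000101335) encodes the regulatory light chain of smooth muscle and non-muscle myosin II, the chain whose phosphorylation starts contraction. It had 449 FPKM at day 0, then 121, 134 and 183 at days 3, 6 and 9. As with TAGLN, day 3 was the lowest library and day 0 the highest. The level on day 0 was 3.71-fold, 3.34-fold and 2.45-fold that of days 3, 6 and 9, and the log2 ratios were -1.88, -1.73 and -1.29. Its 2 transcripts differed little in this: ENST00000346786 had log2 ratios of -1.83, -1.69 and -1.22, and ENST00000279022 of -2.02, -1.87 and -1.53.

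The other regulatory light chain genes, MYL12A and MYL12B, are close in sequence to MYL9, so some reads could have been split between them. MYL12A had 541, 309, 330.4 and 369 FPKM and MYL12B had 352, 228, 199 and 223, both lower on each later day but within the 2-fold limit. MYL9 made up 33.4% of the FPKM of these 3 genes on day 0 and 18.4%, 20.2% and 23.6% on days 3, 6 and 9. MYLK, the kinase that phosphorylates the light chain, went the other way. It had 26.1 FPKM at day 0, then 129, 109 and 92.5 at days 3, 6 and 9, with log2 ratios of 2.26, 2.02 and 1.79. MYL9 had 17.2 times the FPKM of its kinase on day 0 and 0.938, 1.23 and 1.98 times later.

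**Figure D2:**
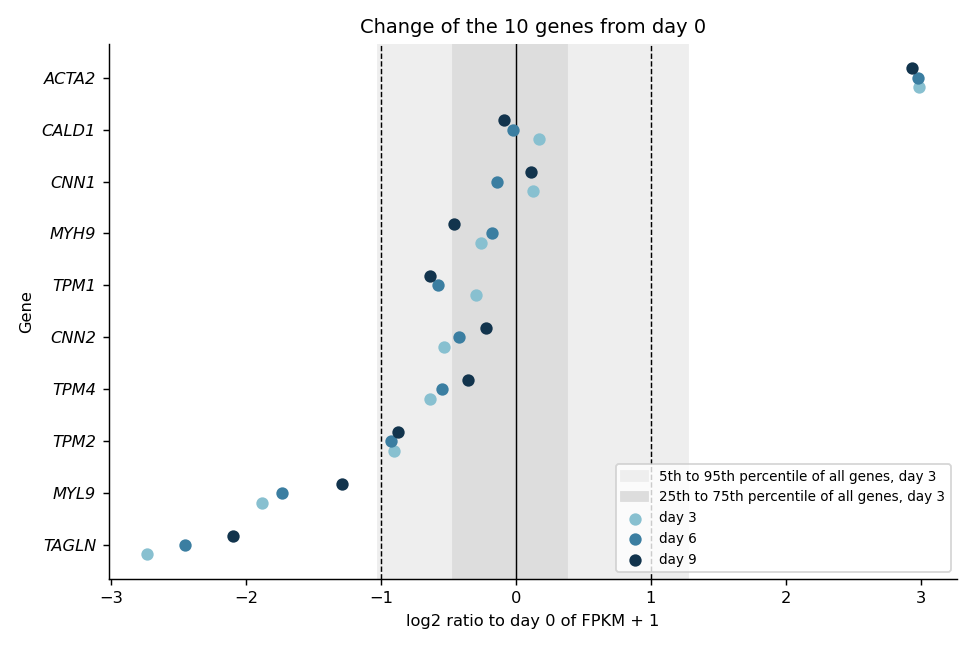
The log2 ratio to day 0 of FPKM + 1 (horizontal axis) for each of the 10 genes (rows) on days 3, 6 and 9 (points), with dashed lines at -1 and 1 and grey bands for the middle of all 12859 genes on day 3. ACTA2 lies near 3 on every day, TAGLN and MYL9 lie below -1, and their points move towards 0 from day 3 to day 9.

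The tropomyosin members were lower on every later day, none of them past the 2-fold limit. TPM2 (ENSG00000198467), beta tropomyosin, came closest, with 552 FPKM at day 0, then 294, 290.2 and 302 at days 3, 6 and 9. Its log2 ratios were -0.90, -0.92 and -0.87, and the 3 later libraries differed by at most 1.04 times. TPM1 (ENSG00000140416), alpha tropomyosin, had 817, 667, 548 and 526 FPKM, with log2 ratios of -0.29, -0.58 and -0.63, so that day 9 was its lowest library. TPM4 (ENSG00000167460), which encodes a non-muscle tropomyosin, had 739, 476, 505 and 577 FPKM, with log2 ratios of -0.63, -0.55 and -0.36, and day 3 was its lowest. TPM1 and TPM4 thus had their lowest level on different days. TPM3, the 4th tropomyosin gene and not a member, was 2-fold lower on all 3 days, with 298, 125, 126 and 141 FPKM. Its log2 ratios were -1.25, -1.24 and -1.07. Over all 4 tropomyosin genes the FPKM summed to 2405 on day 0 and to 1563, 1468 and 1546 later. The share of TPM4 in that sum was 30.7%, 30.5%, 34.4% and 37.4% from day 0 to day 9, and that of TPM2 was 22.9%, 18.8%, 19.8% and 19.5%.

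The tropomyosin genes make many proteins by alternative splicing, and the sums hide transcripts that went opposite ways or changed by different amounts. In TPM2, ENST00000329305 had 444 FPKM on day 0 and 205, 193 and 201 later, whereas ENST00000378292 had 60.1 FPKM on day 0 and 78.9, 82.9 and 86.7 later. The first transcript was past the 2-fold limit, with log2 ratios of -1.12, -1.20 and -1.14, and the share of the second in the gene went from 10.9% to 26.8%, 28.6% and 28.7%. A smaller transcript, ENST00000360958, was past it too, with 37.3, 5.40, 9.23 and 9.96 FPKM. In TPM1, ENST00000358278 had 564, 356, 301 and 312 FPKM while ENST00000559556 had 166, 202, 153 and 142, so that the share of the first was 69.1% on day 0 and 53.4% to 59.3% later. On days 6 and 9 both of these TPM1 transcripts were below day 0. The main transcripts of TPM4 kept similar shares, with 68.6% to 71.6% of its FPKM in ENST00000300933 in every library. Its second transcript, ENST00000588507, had 194, 118, 121 and 133 FPKM. Among its smaller transcripts, ENST00000344824 had 23.0, 5.85, 8.01 and 11.4 FPKM, whereas ENST00000588410 had 1.23, 4.36, 2.36 and 1.33.

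MYH9 (ENSG00000100345) encodes the heavy chain of non-muscle myosin IIA, the motor of stress fibres. It had 525 FPKM at day 0, then 438, 463 and 382 at days 3, 6 and 9, with log2 ratios of -0.26, -0.18 and -0.46. A single transcript, ENST00000216181, held at least 98.7% of it in each library. CALD1 (ENSG00000122786), caldesmon, which binds actin and myosin and slows the motor, had 374, 421, 369 and 353 FPKM. Its log2 ratios were 0.17, -0.02 and -0.08, and those of days 6 and 9 change sign when the FPKM are rescaled to the same sum or the same median. CALD1 thus stayed near its day 0 level, and MYH9 was lower on each later day, within the 2-fold limit. With FPKM rescaled to the same sum, the log2 ratios of MYH9 were -0.06, -0.0003 and -0.34 on days 3, 6 and 9. The 4 largest CALD1 transcripts had log2 ratios between -0.25 and 0.32. ENST00000361901 had 146, 152, 137 and 136 FPKM, ENST00000454108 had 87.2, 109, 104 and 92.1, ENST00000436461 had 73.5, 86.5, 69.8 and 61.5, and ENST00000422748 had 23.9, 22.8, 22.1 and 24.2.

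The calponins bind actin filaments and dampen myosin activity. CNN1 (ENSG00000130176), the smooth muscle form, was the lowest member on each later day, with 46.3 FPKM at day 0, then 50.6, 42.0 and 50.1 at days 3, 6 and 9. Its log2 ratios were 0.12, -0.14 and 0.11, and the day 6 value changes sign when the FPKM are rescaled to the same sum. Of its main transcripts, ENST00000252456 had 37.0, 41.7, 34.2 and 41.9 FPKM and ENST00000586059 had between 6.95 and 8.07 in all 4 libraries. CNN2 (ENSG00000064666), the form found in many non-muscle cells, had 188, 129.9, 140.4 and 162 FPKM, with log2 ratios of -0.53, -0.42 and -0.22. The CNN2 sum covers transcripts that differed. ENST00000263097 had 141 FPKM on day 0 and 77.7, 83.5 and 94.5 later, and ENST00000348419 had 3.85 FPKM on day 0 and 16.8, 20.9 and 27.7 later. The log2 ratios of the second were 1.87, 2.17 and 2.56, and its share of the gene went from 2.05% to 17.1% by day 9. The smaller ENST00000606983 had 11.8, 15.8, 15.9 and 15.0 FPKM, and ENST00000566695 had 14.2, 13.1, 10.2 and 18.2, both within the limit.

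**Figure D3:**
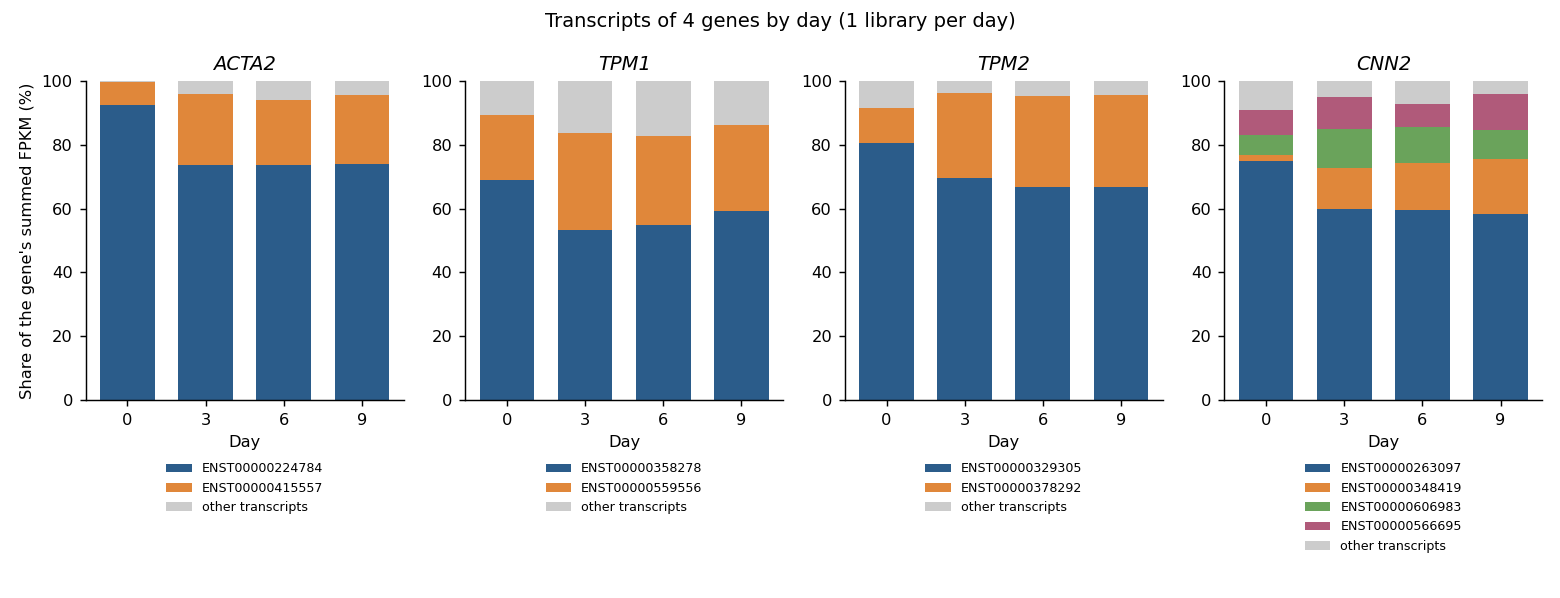
Share of each gene's summed FPKM (vertical axis, percent) held by its transcripts on each day (horizontal axis) for ACTA2, TPM1, TPM2 and CNN2, with 1 library per bar, transcripts with at least 5% of the gene in colour and the rest in grey. The largest transcript gives way on day 3 in each of the 4 genes, in TPM2 from 80.5% to 69.5% and in CNN2 from 74.9% to 59.8%.

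ACTA2 stood apart from the other actin genes. The cytoplasmic actins ACTB and ACTG1, which build the filaments of all cells, were 2-fold lower on all 3 days. ACTB had 7636, 3066, 2741 and 3081 FPKM and ACTG1 had 5962, 2732, 2456 and 2639. The log2 ratios of ACTG1 were -1.13, -1.28 and -1.18. ACTG2, the gamma actin of visceral smooth muscle, had 41.9 FPKM on day 0 and 3.62, 7.46 and 8.20 later, with log2 ratios of -3.21, -2.34 and -2.22. ACTC1, cardiac actin, had 2.31, 0.502, 0.211 and 0.135 FPKM, and ACTA1, skeletal muscle actin, stayed under 1 FPKM in every library. ACTA2 was the only one of the 6 genes with a log2 ratio above 0. Its share of their summed FPKM was 0.149% on day 0 and 2.82%, 3.11% and 2.76% later, while the 6 genes together went from 2.21% of the mRNA table to 1.11%, 0.984% and 1.03%. The coding sequences of the actin genes are similar, so part of the reads could have been assigned among them by the estimate. The levels of the low ones are uncertain for that reason.

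**Figure D4:**
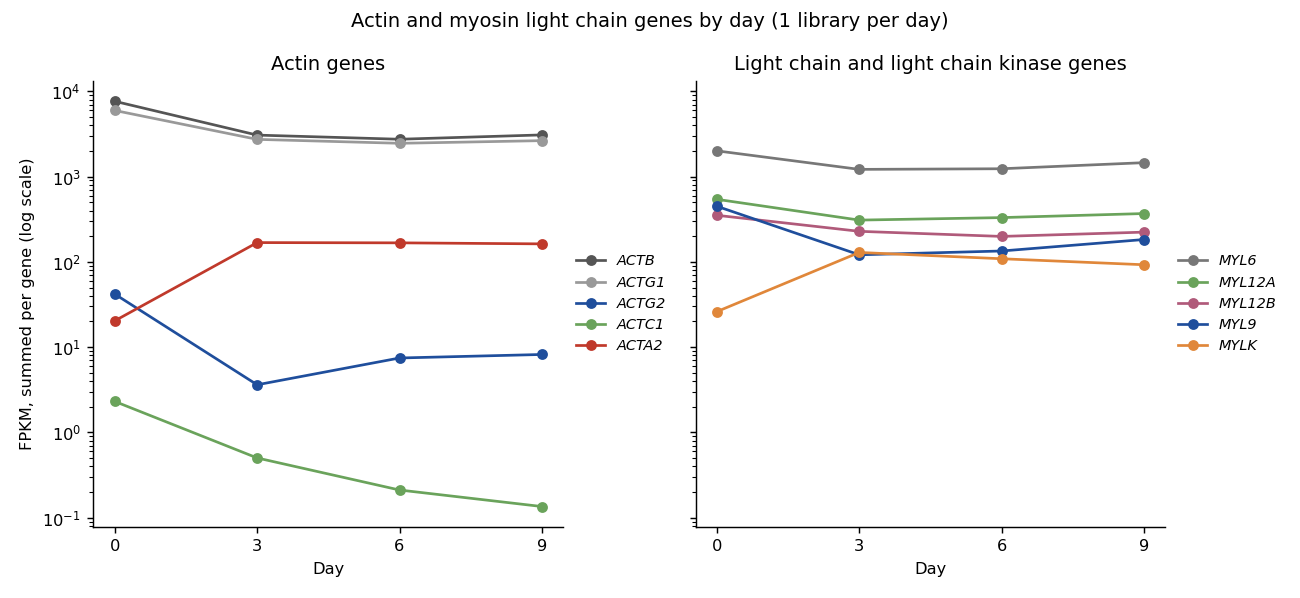
FPKM summed per gene on a log scale (vertical axis) against the day (horizontal axis) for 5 actin genes (left, without ACTA1, which stayed under 1 FPKM) and for 4 myosin light chain genes with the kinase MYLK (right), with 1 library per point. ACTA2 and MYLK go up between days 0 and 3 while every other line goes down.

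Between the later days, all of them at the higher temperature, no member was 2-fold changed. Of all genes, 1.05% were 2-fold higher or lower on day 6 against day 3 and 0.544% on day 9 against day 6. TAGLN had log2 ratios of 0.28 and 0.36 in these steps, and MYL9 of 0.15 and 0.44. Those of the last step lie above 0.35, the 95th percentile of all genes for day 9 against day 6, and 626 and 393 genes had a larger ratio. The value for ACTA2 was -0.01 from day 3 to day 6 and -0.04 from day 6 to day 9. TPM1 (-0.28 from day 3 to day 6) and MYH9 (-0.28 from day 6 to day 9) had the lowest values of the members.

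Of the other genes of the apparatus, 3 lists were read by the same rule. Of 16 further actin, myosin and tropomyosin-related genes, 12 reached 1 FPKM, and 1 of them, MYLK, was 2-fold higher and 5 (ACTB, ACTG1, ACTC1, ACTG2 and TPM3) were 2-fold lower on each later day. Their median log2 ratio was -0.76 on days 3 and 6 and -0.60 on day 9. MYL6, the essential light chain of non-muscle myosin, had 2003, 1215, 1236 and 1456 FPKM, within the limit. MYH10, the heavy chain of non-muscle myosin IIB, had 57.7, 59.6, 58.8 and 54.1 FPKM.

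All 25 genes of crosslinkers and focal adhesions were measured, and most changed little, with a median log2 ratio of -0.23, -0.27 and -0.24. FHL2 alone was 2-fold higher, while 3 genes were lower at day 3, 5 at day 6 and 2 at day 9. FLNA, filamin A, which crosslinks filaments into networks, had 429, 288, 289.6 and 295 FPKM. ACTN1, alpha actinin, which bundles them, had 326, 283, 317 and 328 FPKM. The exceptions on all 3 days were FHL2, a LIM protein of focal adhesions, with 128, 321, 294 and 276 FPKM, and PDLIM7, a LIM protein that binds actin through its PDZ domain, with 290.3, 128, 107.5 and 107 FPKM.

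The 17 genes of SRF, its coactivators and other genes that SRF, serum or tension are known to induce gave no common direction. Of the 15 measured, 2 were 2-fold higher at day 3, 1 at day 6 and 4 at day 9, and EGR1 alone was lower at each, with median log2 ratios of -0.11, -0.13 and 0.21. SRF itself had 14.8, 8.98, 10.4 and 10.9 FPKM. Its coactivators MRTFA, listed as MKL1, and MRTFB, listed as MKL2, had 21.9, 18.2, 16.0 and 15.2 FPKM and 22.9, 21.2, 19.9 and 17.5 FPKM. Myocardin, MYOCD, had 3.57, 6.80, 7.79 and 9.11 FPKM, with log2 ratios of 0.77, 0.94 and 1.15. EGR1, an immediate early gene, had 39.2, 10.1, 6.30 and 11.9 FPKM. CCN1, listed as CYR61, had 445, 483, 549 and 668 FPKM, within the limit.

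**Figure D5:**
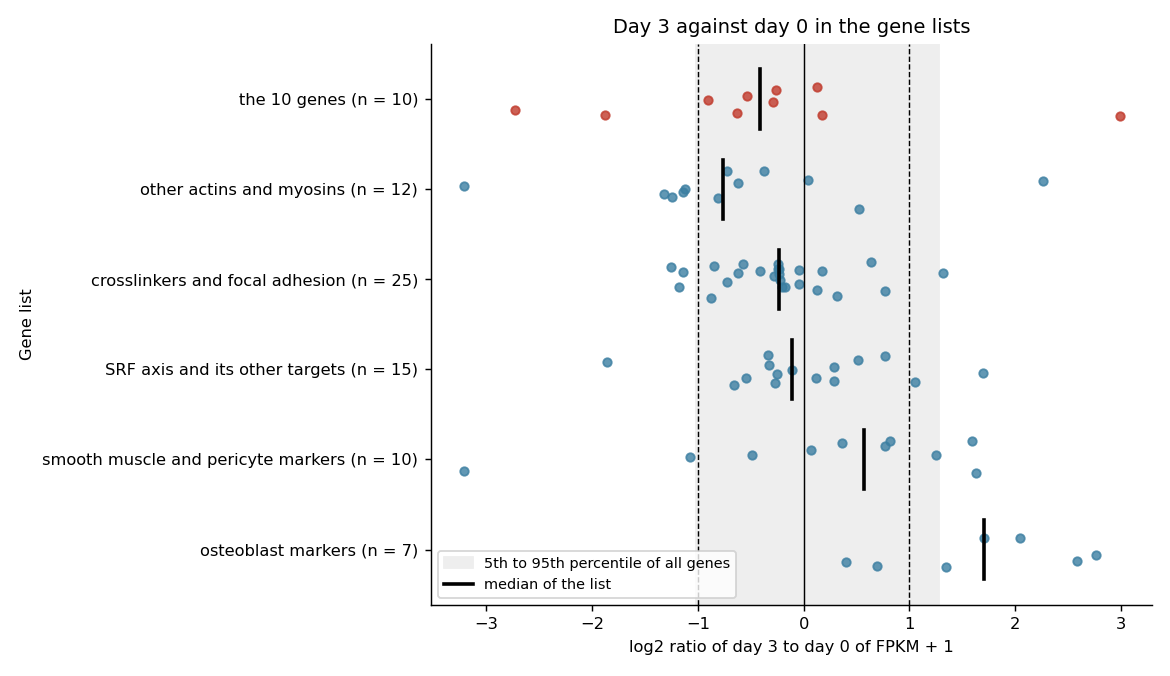
The log2 ratio of day 3 to day 0 of FPKM + 1 (horizontal axis) for every measured gene (points) of the 10 members and of 5 lists (rows, vertical scatter without meaning), with the median of each list as a bar and the 5th to 95th percentile of all genes in grey. The medians are -0.41 for the members, -0.76 for the other actins and myosins and 1.70 for the osteoblast markers, and the members reach further to both sides than the focal adhesion genes.

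The labelled cell type was checked against marker genes. Of 11 osteoblast markers, 7 reached 1 FPKM, and 4 of them (RUNX2, ALPL, COL1A2 and TNFRSF11B) were 2-fold higher on all 3 days. At day 3, 5 of the 7 were higher, at day 6 it was 6 and at day 9 again 5, none was lower, and the median log2 ratio was 1.70 at day 3 and 1.78 at day 6. COL1A1 had 777, 1974, 1587 and 1146 FPKM and SPARC had 1113, 1469, 1351 and 1275, whereas SP7, IBSP, BGLAP and DMP1 stayed under 1 FPKM in every library. Of 14 markers of smooth muscle and pericytes, 10 reached 1 FPKM, and the summed FPKM of all 14 was 219 on day 0 and 264, 260.2 and 272 later. Of these 10, 3 were 2-fold higher at day 3, 2 at day 6 and 4 at day 9, with 2 lower each time, and the median log2 ratios were 0.57, 0.62 and 0.49. Levels within the list differed widely: MYH11 had at most 0.283 FPKM and DES at most 0.624, whereas SMTN had at least 70.0. CASQ2 was listed at 0 on days 3, 6 and 9. RGS5 and NOTCH3 were 2-fold higher on all 3 days, with 1.29, 6.08, 9.60 and 10.7 FPKM and 6.80, 22.4, 22.8 and 23.9 FPKM, and ACTG2 and LMOD1, leiomodin, were 2-fold lower, the latter with 2.97, 0.880, 0.542 and 0.561 FPKM. SMTN, smoothelin, had 70.0, 73.7, 76.4 and 79.4 FPKM, and CSPG4 had 40.2, 71.7, 80.6 and 83.7. The part of any such cells in the ACTA2 and TAGLN values was not tested.

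The genes most like ACTA2 in their course were sought by the largest absolute difference of their 3 log2 ratios from those of ACTA2, over the 4 libraries. The closest were TMEM40 (0.14), EDA2R (0.17), IGF2 (0.18), PSG9 (0.19) and FDXR (0.21), and 7 genes in all lay within 0.25. Each had a lower level than ACTA2: EDA2R had 2.41, 24.7, 24.6 and 22.3 FPKM and FDXR had 8.65, 87.1, 71.5 and 71.5. Adding 1 to the FPKM shrinks the ratios of low genes, so their courses in plain FPKM can differ more from that of ACTA2. From day 0 to day 3 PSG9 went from 0.169 to 7.74 FPKM and IGF2 from 1.66 to 21.3. PSG9 belongs to a family of near-identical genes, and its value is uncertain. For TAGLN no gene lay within 0.25. The closest were PTGES (0.29), DLGAP5 (0.35), HIST2H3C (0.38), HIST2H3A (0.38) and SPOCD1 (0.39), of which the 2 histone genes are near-identical copies that share reads. PTGES, a low gene, went from 6.74 FPKM on day 0 to 0.425 on day 3, a larger fall in plain FPKM than that of TAGLN. SPOCD1 had 50.5, 8.15, 11.2 and 14.8 FPKM. With 1 library per day, these are likenesses of single libraries.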

How the data were processed

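Total RNA of hFOB 1.19 cells was sequenced in 1 library for each of days 0, 3, 6 and 9. According to the study's methods, ribosomal RNA was removed, mRNA libraries were treated with RNase R (an enzyme that digests linear RNA) and prepared with a directional kit, and reads were aligned with TopHat on a Bowtie index. The submitters' processing notes name Bowtie 0.12.2 and mm8, a mouse build, although the cells are human; the program behind the FPKM and the annotation are not given in the sources used here. The authors deposited FPKM per transcript for mRNAs and lncRNAs. The deposited circRNA tables name no host gene, and the deposited comparisons hold the authors' fold changes, p-values and q-values; neither was used.

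For each symbol the FPKM of its transcripts were added up, and log2 ratios of FPKM + 1 were taken; a call needs a ratio of at least 1 or at most -1 and 1 FPKM in any library. Depth per gene is unknown, so no interval is given. The members and gene lists were chosen with earlier results of these data known. Named were all members with their transcripts of at least 5% of the gene, of each list its 2 genes of highest mean FPKM and those past the limit in 1 direction on all 3 days, and the 5 genes most like ACTA2 and TAGLN; any other gene or transcript was chosen after its values were seen. Some genes that this rule names, and 1 gene list, are not reported here. Alternatives covered the pseudocount (0.1), the FPKM minimum, 2 rescalings, the limit (1.5-fold) and the largest transcript alone. The rules were tested on simulated data with planted changes well past the limit and an assumed noise. That does not test calls near the limit or the noise between these single libraries. Python 3.11.15, numpy 2.4.6, pandas 2.3.3 and matplotlib 3.10.9 were used.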

Additional observations from a re-analysis of the deposited data

How the results depend on the processing

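ACTA2 stayed 2-fold higher and TAGLN and MYL9 stayed 2-fold lower on days 3, 6 and 9 under each alternative run, and no other member was 2-fold higher. The log2 ratio of ACTA2 ranged from 2.66 to 3.18 on day 3, that of TAGLN from -2.74 to -2.53 and that of MYL9 from -1.89 to -1.68. With a 1.5-fold limit, 4 members were lower on day 3 (TPM2 and TPM4 added) and 4 on day 9 (TPM1 and TPM2 added). The median log2 ratio of the members was -0.21, -0.31 and -0.29 with FPKM rescaled to the same sum, -0.28, -0.35 and -0.28 rescaled to the same median, and -0.64, -0.63 and -0.52 on the largest transcript alone, where TPM2 also passed the limit on each day.

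Rescaling to the same sum moved the median log2 ratio of all genes on day 3 from -0.08 to 0.10, and the share of higher genes among all 2-fold calls from 60.6% to 77.8%, or to 72.1% when rescaled to the same median. The 1.5-fold limit called 2234 genes higher and 2380 lower on day 3, against 1046 and 681. Rescaled to the same sum, 1398 were higher and 399 lower on day 3, and 507 rather than 825 were lower on day 6. Of the named genes, only the members were followed through these runs. Calls of other genes near the limit, such as ACTG1 and TPM3, could depend on the scaling. No paired analysis was possible because no day has a second library. FPKM carry no read counts, so the precision of single values is not known.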

Other observations

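A few genes of the SRF list had higher levels on each later day than on the one before, or their highest on day 9. They were chosen after their values were seen. CCN2, listed as CTGF, had 309.7, 377, 479 and 698 FPKM, and its log2 ratio was 1.17 on day 9. ANKRD1 had 33.4, 26.3, 30.5 and 65.3 FPKM. TGFBR2, a receptor of TGF-beta, had 20.9, 30.2, 40.4 and 44.2 FPKM. Unlike ACTA2, these genes had their highest level on day 9.

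Of 15 markers of striated muscle, 3 reached 1 FPKM. TNNT1, a troponin of slow skeletal muscle, had 20.6, 42.2, 41.3 and 44.4 FPKM, and ACTC1 and TNNC1 were lower on each later day than on day 0, TNNC1 with 2.14, 0.704, 0.502 and 0.370 FPKM. Counted by the 2-fold limit, 1 gene was lower at day 3 and 2 at days 6 and 9, and TNNT1 was higher at day 9. The summed FPKM of all 15 was 25.9, 45.5, 43.2 and 46.2. MYOG had at most 0.0724 FPKM. Of 10 markers of endothelial, blood and epithelial cells, 3 reached 1 FPKM. CD68, which lysosomes of many cell types also hold, had 16.2, 37.5, 65.1 and 90.6 FPKM and was the one gene of the 3 past the 2-fold limit on any day. The summed FPKM of all 10 was 18.9, 39.5, 67.7 and 93.7. KDR had at most 1.07 FPKM, and PECAM1, CDH5 and PTPRC stayed under 1 FPKM in each library.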
